A study of Mus musculus with 16 samples.

Results

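The fibroblast growth factor (FGF) ligands, their receptors and the feedback regulators of FGF signaling were examined in chromatin accessibility data from mouse small cell lung cancer (SCLC). The genes were chosen by symbol from the protein-coding genes of the basic GENCODE annotation: every *Fgf* gene with a number, *Fgfr1* to *Fgfr4*, *Fgfrl1*, and the Sprouty (*Spry*), Spred and *Dusp4*, *Dusp5* and *Dusp6* genes. A listed peak belonged to the set where the nearest protein-coding transcription start site to its centre was that of one of these genes. This gave 278 of the 80367 listed peaks, assigned to 27 of 36 genes. *Spry3* was not analysed here.

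ATAC-seq, in which the Tn5 transposase inserts adaptors into accessible DNA, had been run on tumor cells sorted for *Hes1* reporter level. GFP high cells are the non-neuroendocrine (non-NE) cells and GFP neg cells the neuroendocrine (NE) cells. The labels give 8 libraries, 4 in each group, as 4 pairs from 3 mice with 1 technical replicate, each library read on 2 lanes for 16 runs in all. The lists hold 40828 peaks that were more accessible in GFP high cells, called opened here, and 39539 that were less accessible, called closed. Both groups came from the same *TKO*;*Hes1* GFP/+ mice, which carry floxed alleles of *Rb*, *p53* and *p130* and a GFP reporter at 1 endogenous *Hes1* allele. Cre was delivered to the airways as an adenovirus with the CMV promoter, which is not restricted to a cell type, so all groups lack the same 3 tumor suppressors in the tumor cells. Tumors of a mouse were pooled before the sort, and antibodies to CD45, CD31, TER-119 and CD24 were used in it.

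No values per library were used, so no difference was tested, and the depth of each library is unknown. A peak's size is given as the mean normalized count, the authors' mean over all libraries, which describes both groups together and is not divided by peak width. Intervals on shares are 95% Wilson intervals and cover counting error only. In bulk samples, fewer cells of a type and less accessibility per cell cannot be told apart.

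FGFs are secreted proteins that bind FGF receptors, which are receptor tyrosine kinases, together with heparan sulfate or Klotho coreceptors, and activate the RAS and MAP kinase cascade. In lung development, *Fgf10* from the mesenchyme signals to *Fgfr2* in the epithelium to drive branching, while *Fgf9* acts in the other direction. Sprouty and Spred proteins and the MAP kinase phosphatases encoded by *Dusp4*, *Dusp5* and *Dusp6* are induced by the pathway and restrain it.

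NE markers lay mostly beside closed peaks, and markers of club and alveolar cells beside opened ones. Of 67 peaks assigned to 6 of 8 NE markers, 56 were closed and 11 opened, and the promoters of *Calca*, *Chga*, *Chgb*, *Insm1* and *Ncam1* held closed peaks. Over all features 50.8% of listed peaks were opened, and 8.46% of protein-coding genes had a closed promoter peak. *Syp* and *Dll3* had no listed peak. *Insm1*, a zinc finger factor of NE cells, had 28 closed and 0 opened peaks. *Chga*, which encodes chromogranin A, went the other way in number, with 8 opened and 6 closed peaks, and so held 8 of the 11 opened peaks of the list. *Hes1*, whose reporter defined the sort, had 26 opened and 11 closed peaks, with 1 opened promoter peak. Markers of club cells had 26 opened and 3 closed peaks, those of alveolar type 1 cells 23 and 3, and those of alveolar type 2 cells 16 and 1, which is 89.7%, 88.5% and 94.1% opened against the same 50.8%.

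Over the whole FGF set the directions balanced, and the contrast lay between the receptors and the intracellular FGF homologous factors. Of the 278 peaks, 139 were opened and 139 closed, equal numbers with an interval of 44.2 to 55.8% on the opened share, against 50.8% of all listed peaks. Receptors with the decoy receptor had 40 opened and 11 closed peaks (78.4% opened, 65.4 to 87.5%). Ligands had 40 and 24 (62.5%, 50.3 to 73.3%), and feedback regulators had 57 and 68 (45.6%, 37.1 to 54.3%). The intervals of ligands and feedback regulators both hold the 50.8%. The share of the feedback regulators depended on the assignment. It was 56.8% for peaks at most 100 kb from the start site and 70.0% for peaks within 10 kb of the gene body. The 50.8% covers all distances, and the share of all listed peaks under these limits is not given here. The intracellular FGF homologous factors had 2 opened and 36 closed peaks (5.26%, 1.46 to 17.3%). By the gene body and 10 kb around it their share was 15.4%. Peaks of 1 gene are neighbours, so these intervals are too narrow for a statement about genes.

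A listed peak was found for 75.0% of the 36 genes, against 66.8% of all protein-coding genes, and the median number of peaks per gene with a peak was 8 against 3. *Fgf3*, *Fgf4*, *Fgf6*, *Fgf7*, *Fgf15*, *Fgf17*, *Fgf22*, *Fgfr4* and *Spred3* had none by the nearest start site. By the gene body and 10 kb around it, *Fgf17* had 3, *Fgf22* 2 and *Spred3* 3. Among 20 of the genes with at least 5 peaks, 2 had only opened peaks, against 13.4% of all genes with as many, and 3 had only closed peaks, against 13.0%. This threshold was chosen after the values were seen, and both counts, *Fgfr3* and *Spred1* on the opened side and *Fgf12*, *Fgf13* and *Fgf14* on the closed side, are near those shares.

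Promoter peaks, centred within 1 kb of a start site of the gene, numbered 16 among the opened and 15 among the closed peaks. They made up 11.5% of the opened peaks, against 18.8% of all listed opened peaks, and 10.8% of the closed peaks, against 6.74%. Of the 15 closed ones, 12 were at FGF homologous factors and 3 at ligands, with 0 at receptors and 0 at feedback regulators. An opened promoter peak was found at 9 of 36 genes (25.0%), namely *Fgf1*, *Fgf2*, *Fgf9*, *Fgf11*, *Fgf18*, *Fgfr2*, *Fgfr3*, *Fgfrl1* and *Spred1*, against 26.6% of all protein-coding genes. A closed one was found at 6 (16.7%), namely *Fgf1*, *Fgf5*, *Fgf12*, *Fgf13*, *Fgf14* and *Fgf23*, against 8.46%. With a promoter window of 3 kb the closed count was 10 and the opened count 9. The 26.6% and 8.46% are for the 1 kb window, and shares of all protein-coding genes at 3 kb are not given here. By the position of its centre in any annotated gene, an opened peak lay at a promoter in 21 cases, in an exon in 4, in an intron in 43 and between genes in 71 (15.1%, 2.88%, 30.9% and 51.1%, against 22.3%, 3.53%, 45.0% and 29.1% of all listed opened peaks). The same counts for closed peaks were 22, 5, 54 and 58 (15.8%, 3.60%, 38.8% and 41.7%, against 9.68%, 3.55%, 51.5% and 35.2%).

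Among the ligands, *Fgf1*, which binds all FGF receptors, had the most peaks, 15 opened and 7 closed, and they alternated along the gene. All coordinates are mm10, and distances are to the nearest start site of the gene, which can be an internal one. A stretch of 7 opened peaks from 38852904 to 38867705 on chromosome 18 surrounded several start sites inside the gene. Its promoter peaks lay at chr18:38866039-38866292, chr18:38866921-38867303 and chr18:38867480-38867705, with mean normalized counts of 58.3, 151 and 44.7. Then came 5 closed peaks from 38869692 to 38919246, the last of which, chr18:38918942-38919246, was centred 323 bp upstream of another *Fgf1* start site and had a count of 38.7. A second stretch of 7 opened peaks ran from 38922314 to 38930723 around the most upstream start site. Its promoter peaks were chr18:38929045-38929294, chr18:38929923-38930029 and chr18:38930032-38930294, with counts of 23.8, 10.9 and 39.3. The opened peak of *Fgf1* with the highest count, 247, lay just past the promoter limit, 1.08 kb upstream at chr18:38930385-38930723. The closed one with the highest count, 131, was intronic at chr18:38878152-38878699. All 22 peaks also lie within *Arhgap26*, which overlaps *Fgf1*.

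*Fgf2*, the other member of its subfamily, showed a simpler split. Its 3 closed peaks lay on the left, from 37332268 to 37355047 on chromosome 3, and its 3 opened peaks on the right, from 37380521 to 37398072. The opened promoter peaks were chr3:37380521-37380980, with a count of 81.9 and centred 5 bp from an internal start site, and chr3:37381231-37381361, with a count of 14.6. The 2 closed peaks within the gene, 1.85 and 6.05 kb downstream of their nearest start site, both had a count of 45.8.

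*Fgf9*, a ligand made by lung epithelium and mesothelium, had 7 opened and 4 closed peaks. Its opened promoter peak, chr14:58072053-58072365, had a count of 193 and a GC content of 80.5% in its central 200 bp. The opened peak with the highest count, 239, lay between genes 179 kb downstream at chr14:58253370-58254003. The closed one with the highest count, 67.2, lay 414 kb downstream at chr14:58488747-58489232.

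*Fgf18*, of the FGF8 subfamily, had 3 opened and 2 closed peaks of similar size, with counts from 71.8 to 99.3. The promoter peak, chr11:33146803-33147042, was opened and had a count of 71.8. The opened peak with the highest count, 84.0, lay 110 kb downstream, and 105 kb downstream lay the closed one with the highest count, 99.3. *Fgf8* had 2 opened peaks, 1 of them in its own exon at chr19:45736877-45737129.

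*Fgf20* had 5 opened and 2 closed peaks, with highest counts of 92.3 at chr8:40227035-40227504 and 35.9 at chr8:40358194-40358449, the latter in an intron of *Micu3*. *Fgf16* had 4 opened peaks 53.2 to 79.6 kb upstream, none with a count above 36.5, and 1 closed intronic peak with a count of 26.3. *Fgf10* had 1 opened peak, 91.3 kb downstream at chr13:118805874-118806202, with a count of 52.8. The other members of its subfamily, *Fgf3*, *Fgf7* and *Fgf22*, had no listed peak.

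*Fgf5* stood on the closed side. Both of its peaks were closed, the promoter peak chr5:98253823-98254370 with a count of 155 and an intronic peak 1.66 kb downstream with a count of 109. The endocrine ligands, hormones that act through Klotho coreceptors, had 3 closed and 0 opened peaks. *Fgf23*, which lowers blood phosphate, had 1 at its promoter, chr6:127072932-127073136, with a count of 23.2. *Fgf21*, a metabolic hormone, had 2, 9.30 and 9.68 kb downstream, with counts of 61.4 and 16.1.

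The FGF homologous factors are not secreted and do not act through FGF receptors. They bind the cytoplasmic tail of voltage-gated sodium channels in neurons and other excitable cells. *Fgf12*, *Fgf13* and *Fgf14* had 15, 9 and 12 closed peaks and 0 opened peaks, and each had closed promoter peaks at 1 or more of its alternative start sites.

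At *Fgf12*, 15 closed peaks spanned 538 kb of chromosome 16. The promoter peak with the highest count, 180, was chr16:28753131-28753834 at the upstream end, beside chr16:28752663-28752830 with a count of 31.4. At an internal start site lay chr16:28446249-28446541 and chr16:28446601-28446890, with counts of 28.3 and 26.4. *Fgf12* therefore had closed peaks at 2 separate promoters.

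*Fgf13*, on the X chromosome, had 5 closed promoter peaks packed from 59133537 to 59135371. Their counts ran from 22.0 at chrX:59134972-59135073 to 80.9 at chrX:59134249-59134622. The others, chrX:59133537-59133657, chrX:59134692-59134842 and chrX:59135186-59135371, had counts of 24.4, 34.2 and 74.6. The highest count at *Fgf13*, 84.1, belonged to an intronic peak at chrX:59131595-59131942, 2.67 kb downstream of an internal start site.

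*Fgf14*, in which mutations cause a spinocerebellar ataxia, had the closed peak with the highest count among the homologous factors. This was the promoter peak chr14:124192344-124193096, 753 bp wide, with a count of 268. It lay next to chr14:124192060-124192227, with a count of 51.5, and far from a small promoter peak at the upstream end, chr14:124677556-124677640, with a count of 7.13. The 3 peaks farthest downstream, 221 to 265 kb from the start site, lay within *Itgbl1*.

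*Fgf11* differed from the other homologous factors. Its 2 peaks were opened, the promoter peak chr11:69801015-69801092 with a count of 18.5 and chr11:69802696-69803109, 1.04 kb upstream, with a count of 126. The FGF homologous factors were thus closed at 3 genes and opened at 1.

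Receptor genes were mostly opened. *Fgfr2*, whose epithelial isoform is the receptor for *Fgf10*, had 25 opened and 8 closed peaks, the most of any gene in the set. Its promoter peak chr7:130265969-130266537 was opened, with a count of 254, and was centred 8 bp from a start site. The central 200 bp of this peak had a GC content of 79.5%. A run of 16 opened peaks without a closed one between them covered 212 kb, from 130040649 to 130252227, through introns and past the 3′ end of the gene. The closed peak with the highest count, 85.6, was intronic, 5.28 kb downstream at chr7:130260729-130261090. A second opened promoter peak, chr7:133123037-133123670 with a count of 175, was assigned to *Fgfr2* through 1 annotated start site 2.86 Mb from the other 3. It lies within *Ctbp2*, which also starts within 1 kb of it, and without that start site *Fgfr2* kept its promoter call through the other peak.

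*Fgfr3* had 9 opened and 0 closed peaks. The promoter peak, chr5:33721462-33722242, had a count of 256, and a group of 3 peaks 25.0 to 26.8 kb upstream had counts of 247, 112 and 153. The other 5 had counts of 5.34 to 17.1. The promoter and 1 upstream cluster therefore held most of the signal at *Fgfr3*.

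*Fgfr1* had 5 opened and 3 closed peaks and no promoter peak. Its highest opened count, 135, was intronic, 5.13 kb downstream at chr8:25537125-25537699, and its highest closed count, 82.0, lay 53.0 kb upstream at chr8:25465557-25465892. *Fgfrl1*, which lacks the kinase domain and binds FGFs without passing on the signal in the usual way, had 1 opened promoter peak. At chr5:108693918-108694750 it had a count of 643, the highest of the whole set.

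Feedback regulators had 125 peaks but only 1 promoter peak, at *Spred1*, where 12.9% of all listed peaks were promoter peaks. Distances to the start site were long, with medians of 67.8 kb for opened and 121 kb for closed peaks, against 17.5 and 42.4 kb over all listed peaks. Of the 125, 51 lay over 100 kb from the start site (40.8%, against 21.1% of all listed peaks).

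*Spred1*, which recruits neurofibromin to RAS, had 7 opened and 0 closed peaks. The promoter peak chr2:117120359-117121657 was 1299 bp wide and had a count of 486. The next in size, 888 bp wide with a count of 174, lay 34.6 kb upstream. *Spred2* had 7 opened and 11 closed peaks, and the 8 peaks farthest upstream, 88.9 to 390 kb from its start site, were all closed. Its highest closed count, 195, was intronic at chr11:19979181-19979713, and its highest opened count, 61.9, was intronic at chr11:19929647-19929849.

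*Spry2*, a Sprouty gene expressed at sites of FGF signaling in the lung, had 14 opened and 14 closed peaks in alternating blocks. A block of 10 closed peaks spanned 141 kb, from 105584759 to 105726211 on chromosome 14, and held the closed peak with the highest count, 218, at chr14:105685146-105685529. Nearer the gene came 4 opened peaks, 1 closed and 5 opened, up to 105822976. The opened peak with the highest count, 172, was chr14:105802714-105803328, 93.8 kb downstream. Along the chromosome, the 28 peaks formed 9 runs of 1 direction.

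*Spry1* had 8 opened and 6 closed peaks. Its opened peak with the highest count, 182, lay 14.1 kb downstream at chr3:37653979-37654307, and its closed one, 121, lay 35.1 kb downstream at chr3:37674955-37675324, in a cluster of 4 closed peaks within 2.96 kb. *Spry4* had 4 opened peaks with low counts, 8.29 to 11.6, and 1 closed peak with a count of 106, 30.4 kb upstream at chr18:38631579-38632107. The highest of the 4 opened ones was chr18:38525179-38525376.

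The MAP kinase phosphatases leaned to the closed side, with 17 opened and 36 closed peaks (32.1% opened, 21.1 to 45.5%), against 50.8% opened over all listed peaks. These were mostly distant peaks, and within 10 kb of the gene bodies lay 2 opened and 2 closed ones. *Dusp6*, a cytoplasmic phosphatase of ERK and a widely used readout of FGF signaling, had 3 opened and 16 closed peaks. A group of 7 closed peaks lay within 9.96 kb, 58.5 to 68.3 kb upstream, and held the highest closed count, 170, at chr10:99202399-99202763. Between that group and the gene lay the opened peak with the highest count, 164, at chr10:99237068-99237663.

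*Dusp5*, a nuclear phosphatase of ERK, had 3 opened and 6 closed peaks. All 6 closed ones lay upstream, from 11.4 to 44.0 kb, with the highest count of 205 at chr19:53500298-53501011. The opened peak with the highest count, 147, was farther out, 67.8 kb upstream at chr19:53461060-53461643. *Dusp4* had 11 opened and 14 closed peaks, most of them over 100 kb upstream. Its opened peak with the highest count, 449, lay 234 kb upstream at chr8:34572949-34573936, and its closed one, 322, lay 185 kb upstream at chr8:34622486-34623098.

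Short motif strings were searched on both strands in the 200 bp around the centre of each peak. For peaks narrower than 200 bp this window runs past the ends of the peak. They were CATTCC (TEAD), TGTTTAC (FOX), TGANTCA (AP-1), TTGGCA (NFI half-site), TGGGAA (RBPJ), CAGCTG (E-box), CACTTGA (NKX2) and CCGGAAG (ETS). The TEAD and RBPJ strings share bases where CATTCCCA occurs, which was the case in 3 of the 278 windows. TEAD strings stood in 14.4% of opened FGF peaks (9.51 to 21.2%) and 18.1% of every listed opened peak, and in 6.47% of closed FGF peaks and 8.77% of every listed closed peak. Over the whole peak, a longer stretch for peaks wider than 200 bp and a shorter one for narrower peaks, the share in opened FGF peaks was 25.2%, against 25.4%. For AP-1 the share was 12.2% in the opened set, against 10.6%, and 28.8% in the closed set (21.9 to 36.8%), against 26.4%. RBPJ strings, opened and then closed, were found in 21.6% and 12.9%, against 20.7% and 16.3%. NFI was found in 18% and 10.8%, against 18% and 13.5%, and FOX in 9.35% and 8.63%, against 6.84% and 9.70%. The E-box was found in 11.5% and 16.5%, against 12.0% and 22.6%, and over the whole peak in 18.7% of opened FGF peaks, against 19.8%. NKX2 was found in 4.32% and 1.44%, against 6.67% and 5.03%, and over the whole peak the closed share was 4.32%, against 6.36%. ETS was found in 1.44% and 2.88%, against 3.21% and 1.54%. The FGF peaks thus lay close to all listed peaks of the same direction for most strings.

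The split by role, made after the values were seen, was uneven for AP-1. It was found in 28 of 68 closed peaks of feedback regulators (41.2%, 30.3 to 53.0%) and in 11 of 57 opened ones (19.3%, 11.1 to 31.3%), against 26.4% and 10.6% of all listed peaks on these sides. In the closed peaks of the homologous factors it was found in 2 of 36 (5.56%, 1.54 to 18.1%). Closed peaks of ligands had it in 7 of 24 (29.2%, 14.9 to 49.2%) and those of receptors in 3 of 11 (27.3%, 9.75 to 56.6%), near that closed share. *Spry2* had 9 of 14 closed peaks with the string, *Dusp4* 8 of 14, *Dusp6* 4 of 16, *Spry1* 3 of 6, *Spred2* 3 of 11 and *Dusp5* 1 of 6. The E-box stood in 3 of 36 closed peaks of homologous factors (8.33%, 2.87 to 21.8%), against 22.6% of all listed closed peaks. ETS stood in 4 of 68 closed peaks of feedback regulators (5.88%, 2.31 to 14.2%), against 1.54%. Apart from these and AP-1, every interval by role held the share of all listed peaks of its direction. Intervals were made for every string, role and direction without correction for their number. Some can therefore miss that share by counting error alone, and no difference by role was tested. A match is a stretch of letters and does not show binding, and for a peak narrower than the window it can lie outside the peak.

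The sequences below are from the GRCm38.p6 genome, forward strand, with matches to the strings in capitals, and bases in annotated exons were left out. They show the opened and the closed peak with the highest count in each group, *Fgf1* and *Spry4* apart. For the homologous factors and the receptors the next in rank is shown where the centre of a higher peak, at the promoters of *Fgf14*, *Fgfrl1*, *Fgfr3* and *Fgfr2*, was mostly exon. The ligands are represented by an intergenic opened peak of *Fgf9*, chr14:58253587-58253786, and the closed promoter of *Fgf5*, chr5:98253997-98254183, neither with a match.
Fgf9 opened: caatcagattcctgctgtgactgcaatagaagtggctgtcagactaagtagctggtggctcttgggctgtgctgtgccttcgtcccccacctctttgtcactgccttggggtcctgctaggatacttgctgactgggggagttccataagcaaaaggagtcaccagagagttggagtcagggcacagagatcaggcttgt
Fgf5 closed: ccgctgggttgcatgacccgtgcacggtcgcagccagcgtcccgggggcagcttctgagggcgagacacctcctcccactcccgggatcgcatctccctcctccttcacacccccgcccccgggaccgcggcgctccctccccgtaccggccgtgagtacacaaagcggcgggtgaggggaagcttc

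The homologous factors are shown by the opened peak upstream of *Fgf11*, chr11:69802803-69803002, with an RBPJ string, and the closed upstream promoter of *Fgf12*, chr16:28753383-28753582, without a match.
Fgf11 opened: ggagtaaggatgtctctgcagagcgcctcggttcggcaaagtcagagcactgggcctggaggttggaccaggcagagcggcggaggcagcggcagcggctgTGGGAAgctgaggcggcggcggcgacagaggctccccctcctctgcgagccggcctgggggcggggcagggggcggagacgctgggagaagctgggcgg
Fgf12 closed: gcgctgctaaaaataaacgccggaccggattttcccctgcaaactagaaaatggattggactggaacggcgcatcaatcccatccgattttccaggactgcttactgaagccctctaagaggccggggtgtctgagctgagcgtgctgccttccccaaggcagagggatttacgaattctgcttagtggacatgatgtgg

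The receptors are shown by the upstream opened peak of *Fgfr3*, chr5:33694813-33695012, with an RBPJ and a TEAD string, and the intronic closed peak of *Fgfr2*, chr7:130260810-130261009, with an E-box.
Fgfr3 opened: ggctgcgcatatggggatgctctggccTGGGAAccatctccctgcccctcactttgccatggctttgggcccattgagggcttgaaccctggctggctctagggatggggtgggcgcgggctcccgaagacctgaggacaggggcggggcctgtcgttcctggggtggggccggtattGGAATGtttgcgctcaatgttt
Fgfr2 closed: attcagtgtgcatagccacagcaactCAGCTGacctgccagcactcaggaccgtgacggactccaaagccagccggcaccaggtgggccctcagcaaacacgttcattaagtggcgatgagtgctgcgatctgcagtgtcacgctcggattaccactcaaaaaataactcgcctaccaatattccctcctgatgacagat

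The feedback regulators are shown by the opened promoter of *Spred1*, chr2:117120909-117121070, and the closed peak of *Dusp4*, chr8:34622693-34622892. To these were added, after their values were seen, the closed peak with the highest count of *Dusp5* (chr19:53500555-53500754), *Dusp6* (chr10:99202482-99202681), *Spred2* (chr11:19979348-19979547), *Spry1* (chr3:37675040-37675239) and *Spry2* (chr14:105685238-105685437). AP-1 strings stand in those of *Dusp4*, *Dusp6*, *Spred2* and *Spry1*, an ETS string in that of *Dusp5*, an E-box also in that of *Spred2*, and no match in that of *Spry2* or at the *Spred1* promoter.
Spred1 opened: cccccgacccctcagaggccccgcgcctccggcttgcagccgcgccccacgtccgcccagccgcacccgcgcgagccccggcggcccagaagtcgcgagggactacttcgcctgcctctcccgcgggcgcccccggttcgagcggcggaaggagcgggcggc
Dusp4 closed: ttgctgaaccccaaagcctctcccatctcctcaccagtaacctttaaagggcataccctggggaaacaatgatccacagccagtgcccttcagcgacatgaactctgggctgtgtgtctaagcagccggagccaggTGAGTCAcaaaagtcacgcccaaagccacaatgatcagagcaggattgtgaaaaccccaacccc
Dusp5 closed: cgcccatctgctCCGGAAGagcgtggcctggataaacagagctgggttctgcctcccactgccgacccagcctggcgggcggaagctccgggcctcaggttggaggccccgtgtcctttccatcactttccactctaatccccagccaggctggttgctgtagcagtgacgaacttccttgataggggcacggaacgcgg
Dusp6 closed: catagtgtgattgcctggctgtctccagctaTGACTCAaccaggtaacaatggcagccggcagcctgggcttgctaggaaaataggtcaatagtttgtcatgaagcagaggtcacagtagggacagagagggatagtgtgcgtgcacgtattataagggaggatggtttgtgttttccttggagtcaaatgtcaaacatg
Spred2 closed: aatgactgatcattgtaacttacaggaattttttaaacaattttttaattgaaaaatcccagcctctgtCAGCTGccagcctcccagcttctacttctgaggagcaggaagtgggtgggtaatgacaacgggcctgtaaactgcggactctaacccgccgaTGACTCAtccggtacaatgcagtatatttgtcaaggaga
Spry1 closed: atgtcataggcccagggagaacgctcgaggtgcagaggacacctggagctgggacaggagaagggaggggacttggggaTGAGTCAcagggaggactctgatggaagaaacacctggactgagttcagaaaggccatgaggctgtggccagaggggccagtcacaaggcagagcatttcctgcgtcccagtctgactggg
Spry2 closed: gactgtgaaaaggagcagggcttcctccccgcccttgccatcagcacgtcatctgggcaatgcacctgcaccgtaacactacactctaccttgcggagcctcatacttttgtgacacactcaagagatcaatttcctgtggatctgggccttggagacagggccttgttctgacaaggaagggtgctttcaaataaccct

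Other genes of the pathway were described by the same assignment. Extracellular partners and coreceptors had 76 opened and 162 closed peaks at 18 of 21 genes (31.9% opened, 26.3 to 38.1%), where the share over all listed peaks was 50.8%. The 3 genes with the most peaks were *Cdh2*, with 2 opened and 42 closed, *Flrt3*, with 13 and 30, and *Gpc6*, with 0 and 27. Promoter peaks were closed at *Cdh2*, *Flrt2*, *Gpc6*, *Kl* and *Ncam1* and opened at *Fgfbp1*, *Gpc4*, *Il17rd* and *Sdc4*, which is 5 and 4 of 21 genes, against 8.46% and 26.6%. *Il17rd*, which encodes the FGF antagonist SEF, had 6 opened and 0 closed peaks. *Ncam1* is also in the list of NE markers.

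Genes of the signal relay from receptor to ERK had 70 opened and 20 closed peaks at 19 of 20 genes (77.8% opened, 68.2 to 85.1%), against 50.8% of all listed peaks. Opened promoter peaks were found at 15 of them, among them *Cbl*, *Frs2*, *Frs3*, *Grb2*, *Hras*, *Map2k1*, *Map2k2*, *Mapk3*, *Nf1*, *Nras*, *Plcg1*, *Ptpn11* and *Shc1*, and a closed one at 0, against 26.6% and 8.46% of all protein-coding genes. The adaptor *Gab1* had the most peaks, 7 opened and 9 closed, followed by *Plcg1*, with 11 and 0. *Sos1* had no listed peak.

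Nuclear targets had 80 opened and 65 closed peaks at 9 of 10 genes (55.2% opened, 47.0 to 63.0%), near the 50.8% of all listed peaks. *Myc* had 28 opened and 37 closed peaks, *Etv1* 1 and 15, and *Ier3* 12 and 1. Promoter peaks were opened at *Etv4*, *Fos* and *Ier3* and closed at *Myc*, which is 3 and 1 of 10 genes, against 26.6% and 8.46% of all protein-coding genes. *Etv4* and *Etv5*, which are ETS factors induced by FGF signaling, had 4 opened and 1 closed and 6 opened and 6 closed peaks.

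The ErbB receptors and Met, other receptor tyrosine kinases, had together with their ligands 60 opened and 103 closed peaks over 16 of 17 genes (36.8% opened, 29.8 to 44.4%), against 50.8% of all listed peaks. *Nrg1* had the most, with 2 opened and 35 closed, then *Egfr*, with 3 and 19, and *Met*, with 16 and 2. Promoter peaks were opened at *Egfr*, *Epgn*, *Erbb2*, *Erbb3*, *Met*, *Nrg4* and *Tgfa* and closed at *Hgf*, *Met*, *Nrg1*, *Nrg2* and *Nrg3*, which is 7 and 5 of 17 genes, against 26.6% and 8.46%. The difference from the FGF set was not tested.

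Markers of other cell types of the tumor were also listed on both sides. The 7 leukocyte markers had 18 opened and 5 closed peaks, with summed counts of 961 and 128, and opened promoter peaks at *Cd68* and *Cd74*. That is 78.3% opened (58.1 to 90.3%), against 50.8% of all listed peaks, and promoter peaks were found at 26.6% (opened) and 8.46% (closed) of all protein-coding genes. *Itgam* had no listed peak, and the highest count, 253, was at *Cd74*. The 6 endothelial markers had 15 opened and 43 closed peaks (25.9% opened, 16.3 to 38.4%), with summed counts of 762 and 2865, and their highest count, 769, was at *Tek*. Promoter peaks were opened at *Kdr* and closed at *Tek*, with counts of 228 and 15.5, so the 769 at *Tek* lay outside its promoter. The 7 fibroblast markers had 10 opened and 13 closed peaks, with summed counts of 377 and 1188. That is 43.5% opened, with an interval of 25.6 to 63.2% that holds the 50.8%. Their highest count, 390, was at *Col1a2*, outside its promoter. A promoter peak was opened at *Col1a1* and closed at *Col1a2*, with counts of 83.4 and 11.4. *Col3a1*, *Lum* and *Pdgfrb* had no listed peak. The part of these cell types in the FGF results was not tested.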

How the data were processed

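ATAC-seq libraries of sorted GFP high and GFP neg cells were processed by the authors, who aligned reads to mm10 with Bowtie2 2.3.4.1, called peaks with MACS2 and compared the groups with DESeq2 1.28.1, per the submitters' processing notes. The deposited signal per peak is the authors' mean normalized count over all libraries. The deposited lists hold the peaks past the authors' limits on adjusted p and fold change. Their columns of fold changes, standard errors, test statistics and p-values belong to that comparison and were not used. Depth per library is unknown, and peaks outside the lists were not analysed here.

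Peaks were assigned with Python 3.11.15, numpy 2.4.6, pandas 2.3.3 and pysam 0.24.0 to the nearest start site of a protein-coding transcript in the basic GENCODE vM21 annotation. All peaks lie within the chromosomes of GRCm38.p6, and no FGF peak was tied between genes. The assignment, interval and motif search were tested on simulated data. Every FGF gene is named with its counts. Single peaks described are the promoter peaks and, for genes with at least 3 peaks, the opened and the closed peak with the highest count. Other single peaks, such as those of *Fgf5*, *Fgf8*, *Fgf10*, *Fgf11* and *Fgf21*, were chosen after their values were seen. Of the other lists, the 3 genes with the most peaks and those with promoter peaks are named, and genes outside these rules were chosen after their values were seen. Some genes of these lists enter the counts but are not reported here by name. Printed sequences are stretches of at least 100 bases from the central 200 bp. The members and lists were chosen with earlier results of these data known. Alternatives changed the start sites, the distance limit, the peak list, the promoter window and the motif window.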

Additional observations from a re-analysis of the deposited data

How the results depend on the processing

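No paired analysis was possible because the peak lists used hold values over all libraries together, and for the same reason no replicate could be left out. Of 67 values for counts and shares of peaks and genes under the alternatives, 59 lay within 1.5 times the count or within the interval of the share. With a mean normalized count of at least 50, 96 peaks were left, 50 opened and 46 closed, since fewer peaks entered. With peaks at most 100 kb from the start site, 84 closed peaks were left, and the opened share of feedback regulators was 56.8%, since proportionally more closed than opened peaks lay beyond that distance. With assignment to the gene body and 10 kb around it, the opened share was 64.2% for the whole set and 70.0% for feedback regulators. In that assignment 146 of the 260 peaks belonged to *Fgfr2*, whose annotated record reaches its distant start site. The cause of the change for feedback regulators was not tested. Shares of all listed peaks under the 100 kb limit and the gene body assignment are not given here, so these shares have no such comparison. With a promoter window of 3 kb, 10 genes had a closed promoter peak, with *Dusp4*, *Fgf2*, *Fgf20* and *Spred2* added. The share of all protein-coding genes at that window is not given here. Leaving out the distant *Fgfr2* start site, an alternative chosen after seeing the data, gave 277 peaks and an opened share of 49.8%. The opened share of the homologous factors rose from 5.26 to 15.4% with the gene body and 10 kb around it. Shares for ligands, homologous factors and receptors kept within their intervals under each alternative run. For receptors, the gene body share of 76.6% came mostly from *Fgfr2*, with 111 opened and 35 closed peaks over its long annotated record. It therefore says little about the other receptor genes. Of 32 motif shares, 29 did so. Over the whole peak the others, in opened peaks, were higher, at 25.2% for TEAD, 26.6% for the NFI half-site and 18.7% for the E-box. Those within their intervals also moved, as closed NKX2 from 1.44 to 4.32% and closed NFI from 10.8 to 16.5%. The nearest gene need not be the gene a peak acts on. How depth limited which small peaks were listed is unknown.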
